A study of Mus musculus with 12 samples.

Results

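A set of 10 genes of lipid transport and lipid breakdown was followed through aging and spinal cord injury (SCI) in the mouse. They are the apolipoprotein genes Apoe, Apoc1, Apoc2, Apod and Clu, the efflux transporter genes Abca1 and Abcg1, the lipase genes Lpl and Lipa, and Plin2, which encodes a coat protein of lipid droplets. The 10 were chosen by name, out of 18194 genes with a probe of their own on the array. A probe counted only if it was annotated to that gene alone, and where a gene had several, the one with the highest mean signal over all 12 arrays was used. That mean takes no account of the groups. The other probes served as a check.

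The mice were female C57BL/6 animals (C57BL/6J in the study's methods). Of the 4 groups of 3 mice, young intact (2 to 3 months old) and aged intact (15 to 18 months old) mice had no lesion. Young injured and aged injured mice of these same ages had received a contusion with an impactor at the Th9 level of the thoracic cord and were examined 9 days later. All were perfused with heparinized saline before the Th9 segment was removed. Each mouse gave 1 array, and the comparison asks how the cord of an aged animal differs from that of a young one before and after SCI.

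Values are MAS 5.0 signals, linear fluorescence intensities scaled so that each array has the same trimmed mean, and a signal of 50 was the study's limit for a gene to be considered. Because a segment holds all its cell types together, fewer cells of a type and less RNA per cell cannot be told apart. A gene was called higher or lower where the adjusted p of limma, fitted to the log2 signals of 10511 genes with a mean above 50 in at least 1 group, was under 0.05. All 10 genes passed that limit. Apoc2 passed it only through the injured groups and so had to be higher after SCI. The arrays had median signals of 20.4 to 23.9, and 35.05% to 36.73% of the probes were above 50. Markers of neurons (8 of 9 genes with a mean above 50 in every group, Chat being the exception), astrocytes (8 of 8) and oligodendrocytes (7 of 7 measured) were present. The aged injured arrays were the most unlike each other, with a mean Euclidean distance of 58.6 over the log2 signals of these genes, against 26.8 to 31.4 within the other groups, and aged injured replicate 1 stood farthest out. Results that rest on it are given with and without it.

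Lipids leave cells and travel between them on particles held together by apolipoproteins. ABCA1 and ABCG1 hand cholesterol to these particles, lipoprotein lipase frees fatty acids from the triglycerides they carry, and lysosomal acid lipase splits the cholesterol esters and triglycerides that a cell has taken up. Excess lipid is stored in droplets coated by perilipins. In the central nervous system astrocytes are a main source of apolipoprotein E and clusterin, and after injury phagocytes that have swallowed myelin must digest and export large amounts of cholesterol.

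All 10 genes were higher in injured than in intact cord of young mice, and 8 of the 10 in aged mice. Without Apoc2, whose direction the limit on signal fixed, these are 9 of 9 and 7 of 9 genes. Of all 10511 genes tested, 33.9% were called higher in young mice (68.0% in either direction) and 35.6% in aged mice (75.5% in either direction), so that a call after SCI was common. What set the genes apart from one another was the size of the increase. Among the genes with means above 50 in both groups it ran from 0.26 (Apod) to 4.32 (Lpl) on the log2 scale in young mice and from -0.19 (Clu) to 4.69 (Plin2) in aged mice. Of Apoc2, and of Apoc1 in young mice, the intact means under 50 leave only a lower bound. The median over the 10 genes, given as a description, was 3.00 in young mice (2.73 with these genes at their bound), against -0.00 over all genes tested, and 2.83 in aged mice (also 2.83 with Apoc2 at its bound), against -0.04. Of the 12 genes of a microglia and macrophage list, 11 were called higher with injury at either age and none lower. P2ry12 had means of 196.5 in young intact and 251.8 in young injured cord, but 229.5 in aged intact and 221.6 in aged injured cord. Their summed signal was 3260.1 to 3615.5 in young intact, 5567 to 5860.2 in aged intact, 23204.4 to 29800 in young injured and 27205.7 to 30059.1 in aged injured cord. All 7 genes of a fibroblast and meninges list were also called higher at either age. Their median was 1.72 in young and 2.58 in aged mice on the log2 scale. Neuron markers went the other way, with 4 of 8 genes called lower in young and 8 of 8 in aged mice. Of the astrocyte markers, 2 of 8 were called higher in young and 5 of 8 lower in aged mice. The part of any of these cells in the increases was not tested.

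**Figure D1:**
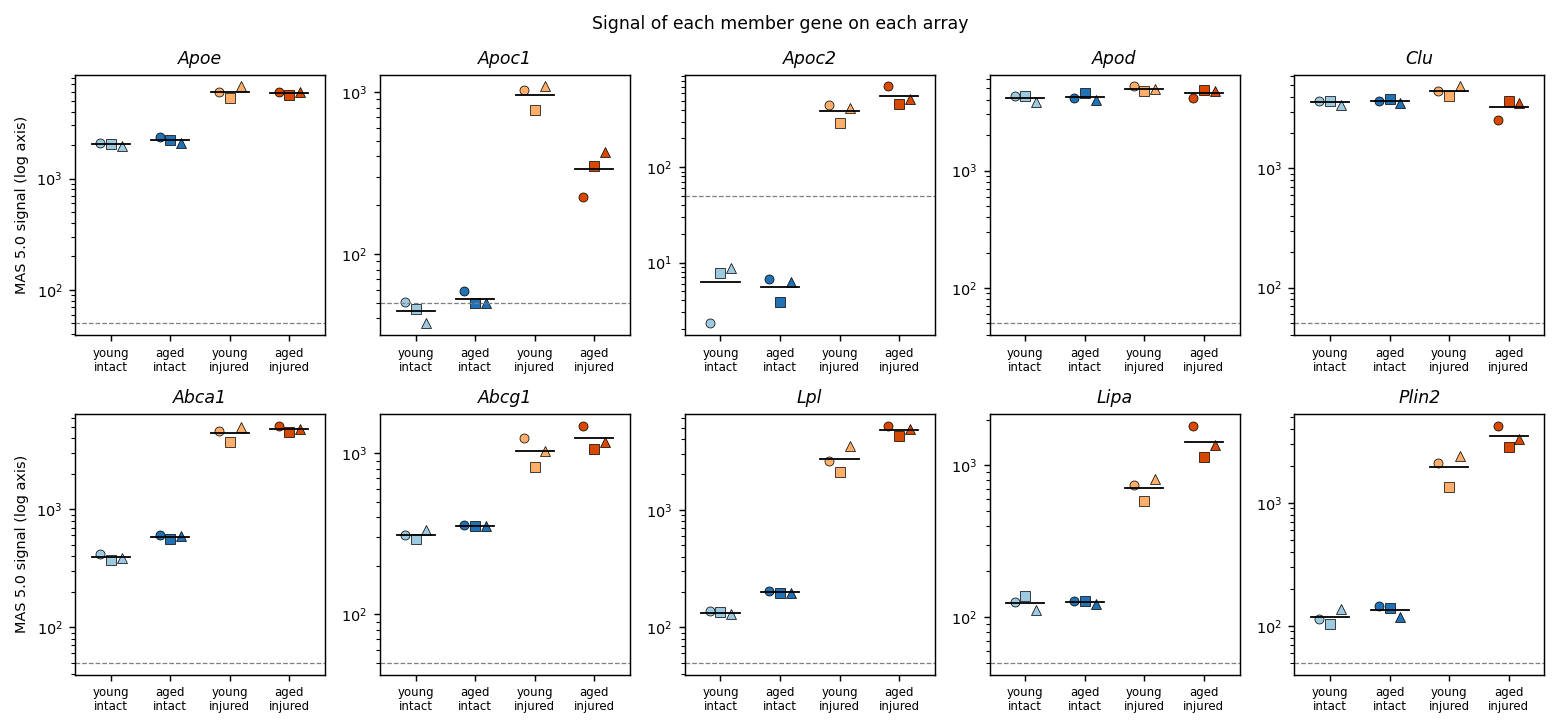
MAS 5.0 signal (log axis) of each of the 10 genes on each of the 12 arrays, by group, where circles, squares and triangles are replicates 1, 2 and 3, horizontal bars are group means and the dashed line marks a signal of 50. Apoc1 is lower on all 3 aged injured arrays (224.2 to 426.1) than on the young injured ones (772.9 to 1083.5), while Lpl, Lipa and Plin2 are higher on all 3.

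**Figure D2:**
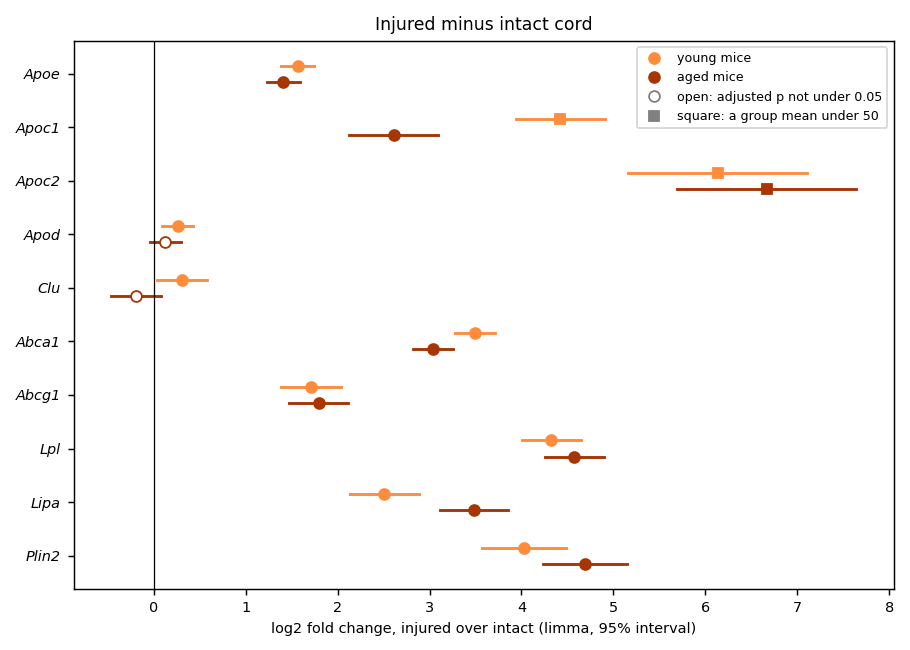
Difference between injured and intact cord as a log2 fold change from limma with its 95% interval (horizontal axis) for the 10 genes, in young and in aged mice, with open points where the adjusted p was not under 0.05. Squares stand for genes with an intact mean under 50 (Apoc2, and Apoc1 in young mice), where the plotted value is no measure of a fold. Apod and Clu lie near 0, and Lpl (4.32 in young mice) and Plin2 (4.69 in aged mice) lie farthest out among the circles.

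Apoe, which encodes the main apolipoprotein of the nervous system, had signals of 2073, 2038 and 1969 in young intact and 2364, 2214 and 2088 in aged intact cord. After SCI they were 5994, 5331 and 6729 in young and 6026, 5616 and 6049.9 in aged mice. Every injured array was above every intact one, every aged intact array was slightly above the young intact ones, and the ages overlapped after SCI. With injury Apoe rose 2.96-fold in young mice (log2 fold change 1.56, SE 0.08, limma adjusted p = 6.97e-08) and 2.66-fold in aged mice (adjusted p = 1.23e-07). The difference between aged and young intact mice, 0.13 on the log2 scale, was not called (95% interval -0.04 to 0.31, adjusted p = 0.680). After SCI the difference was -0.02 (95% interval -0.20 to 0.15, adjusted p = 0.850).

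Apoc1 encodes a small exchangeable apolipoprotein that rides on the same particles. It was near the limit in intact cord, with signals of 50.8, 45.7 and 37.3 in young and 59.2, 49.7 and 49.6 in aged mice. In injured cord it reached 1023, 772.9 and 1083.5 in young mice but 224.2, 347.7 and 426.1 in aged mice. No aged injured array came near a young injured one, and aged injured replicate 1 was the lowest of the 6. With the young intact mean set to 50, the increase was at least 19.2-fold in young mice, and it was 6.11-fold in aged mice (adjusted p = 5.92e-08 and 2.10e-06 from limma). In injured cord the mean of aged mice, 333 ± 102, was 0.347 times that of young mice, 959.8 ± 165 (n = 3 each, SD; log2 fold change -1.56, SE 0.22, 95% interval -2.05 to -1.08, adjusted p = 0.00587). This call held without any 1 of the 12 arrays (adjusted p up to 0.0353), and without aged injured replicate 1 the log2 fold change was -1.30 (adjusted p = 0.00192). In a limma fit of the 6 injured arrays alone Apoc1 was not called (adjusted p = 0.0958).

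The injury response of Apoc1 was called different between the ages in the main fit, where its young intact mean was under 50. The interaction of age and injury, the difference between the responses of aged and young mice, was -1.81 on the log2 scale (SE 0.31, 95% interval -2.50 to -1.13, limma adjusted p = 0.0376). Apoc1 was the only 1 of the 10 genes called there, where 0.438% of all genes were called (0.304% lower). The call ended without any 1 of the 6 intact arrays or without young injured replicate 1 or 3 (adjusted p of 0.0774 to 0.120), with values of -2.02 to -1.55 over the 12 arrays left out in turn. It also ended without the filter on signal, without a trend in the spread and with a replicate block (adjusted p = 0.0521, 0.0551 and 0.0706). Of the 12 microglia and macrophage markers, 4 were called lower and 0 higher in this interaction (median -0.48). Their part in it was not tested.

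Apoc2 encodes the cofactor that lipoprotein lipase needs for its activity. Its signal was 2.3, 7.7 and 8.8 in young intact and 6.7, 3.9 and 6.2 in aged intact cord, well under 50 on all 6 arrays. SCI brought it to 450.8, 288.6 and 416.8 in young and 703.6, 465 and 520.8 in aged mice. The aged injured arrays were all above the young injured ones, although the lowest of them, 465, was close to the highest young one, 450.8. The increase with injury was at least 7.71-fold in young and at least 11.3-fold in aged mice (adjusted p = 9.38e-07 and 3.82e-07 from limma). The difference between the ages after SCI was 0.55 on the log2 scale and was not called (SE 0.44, 95% interval -0.42 to 1.53, adjusted p = 0.399).

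Apoe, Apoc1 and Apoc2 are neighbours. In the RefSeq annotation of the GRCm38.p6 assembly, Apoc2, Apoc4, Apoc1 and Apoe follow each other on chromosome 7, in this order of position, with the gene model Gm44805 between the first pair. Apoc4 had signals of 3.6 to 13.9 in young intact and 1.7 to 9.4 in aged intact cord, and of 161.2, 135.6 and 208 in young injured and 128.3, 113.3 and 132.4 in aged injured cord. Like Apoc1 it was lower on every aged than on every young injured array, but the difference of -0.41 on the log2 scale was not called. The age difference of Apoc1 after SCI was more negative than those of its neighbours, by 1.54 than that of Apoe, 1.15 than that of Apoc4 and 2.11 than that of Apoc2 on the log2 scale. Each of these differences between genes gave p = 0.1 in a two-sided exact permutation test of the age labels, the smallest that 3 mice against 3 allow.

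**Figure D3:**
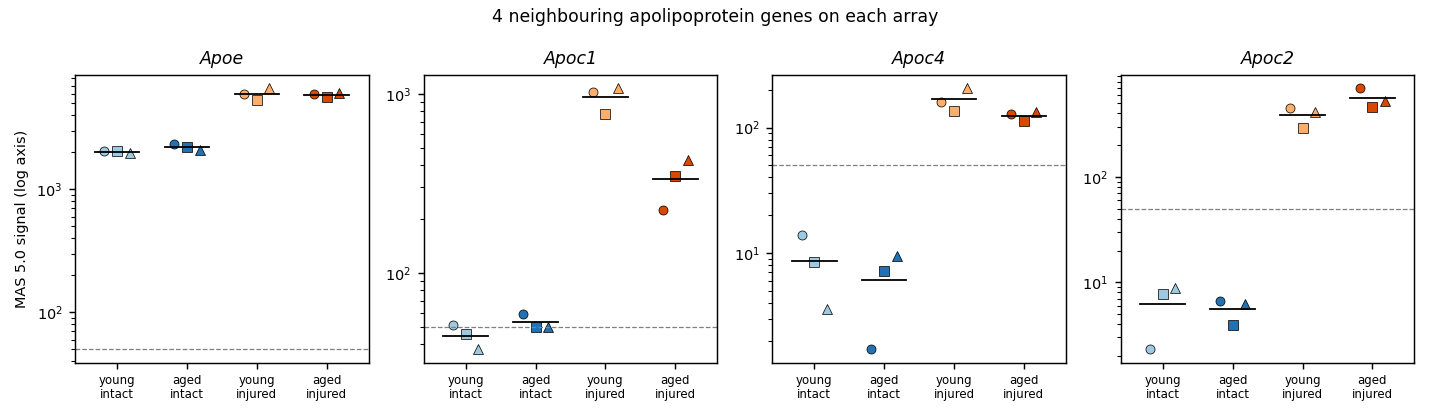
MAS 5.0 signal (log axis) of 4 neighbouring apolipoprotein genes of chromosome 7 on each array, by group, where circles, squares and triangles are replicates 1, 2 and 3, bars are means and the dashed line marks a signal of 50. All 4 genes are above their intact signals on every injured array, and after SCI the aged arrays are below the young ones for Apoc1 and Apoc4, above them for Apoc2 and mixed with them for Apoe.

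Apod and Clu, genes of glia, had the smallest differences between injured and intact cord. Apod encodes a lipid-binding protein of the lipocalin family that is unrelated in structure to the other apolipoproteins of this set. Its signals were 4334, 4285 and 3862 in young intact, 4157, 4549.8 and 3951 in aged intact, 5202, 4741 and 4973 in young injured and 4176, 4873 and 4757 in aged injured cord. Only in young mice did the injured arrays clear the intact ones. The increase in young mice was 1.20-fold (log2 fold change 0.26, SE 0.08, limma adjusted p = 0.0115). It was not called without young intact replicate 3 (adjusted p = 0.0503). In aged mice the value was 0.12 (adjusted p = 0.159), and it was called without aged injured replicate 1 (0.19, adjusted p = 0.0305) and with array weights (0.18, adjusted p = 0.0142).

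A second Apod probe, 1444564_at, rose by more, with mean signals of 222 in young intact, 209 in aged intact, 502 in young injured and 442 in aged injured cord. Its differences with injury were 1.17 in young and 1.08 in aged mice on the log2 scale, against 0.26 and 0.12 for the brighter probe. In aged mice this probe (adjusted p = 1.32e-05) and the mean of both probes (0.60, adjusted p = 9.19e-05) were called higher.

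Clu encodes clusterin, also called apolipoprotein J, a secreted chaperone. It had signals of 3673.5, 3692 and 3421 in young intact and 3678, 3842 and 3552 in aged intact cord. In injured cord they were 4486, 4024 and 4885 in young and 2544, 3706.5 and 3552.5 in aged mice. All aged injured arrays were below the young injured ones, with replicate 1 the lowest. Aged injured cord was lower than young injured cord by a log2 fold change of -0.47 (SE 0.12, 95% interval -0.74 to -0.19, limma adjusted p = 0.0419). Leaving out any 1 array but aged injured replicate 1 or 2 ended the call (adjusted p of 0.0556 to 0.116). Without aged injured replicate 1 the value was -0.29 (adjusted p = 0.0434). All 3 other probes of Clu were called lower as well, at -0.60, -0.33 and -0.39 (adjusted p = 0.0360, 0.0444 and 0.0482).

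Clu was higher in injured than in intact cord of young mice by 0.31 (adjusted p = 0.0452), a call that ended without any 1 of the 6 intact arrays or without young injured replicate 1 or 3 (adjusted p of 0.0567 to 0.151). In aged mice the difference was -0.19 and not called (adjusted p = 0.174). Probe 1418626_a_at of Clu was called lower with injury in aged mice (-0.44, adjusted p = 0.0193) and not called in young mice (0.26, adjusted p = 0.143). The other probes, 1437458_x_at and 1437689_x_at, were called higher in young mice (0.25 and 0.31) and not called in aged mice (-0.18 and -0.19). With injury in young mice, where Clu was called higher, 2 of 8 astrocyte markers were called higher and 0 lower. Their median there was 0.0005 on the log2 scale, and -0.44 with injury in aged mice. Between the injured ages the astrocyte markers went the same way as Clu. After SCI 3 of 8 genes were called lower in aged mice and none higher, and the list had a median of -0.52 on the log2 scale. Their summed signal was 11839.6 to 19253.2 in aged injured and 21616.1 to 24575.8 in young injured cord, and the lowest sum belonged to aged injured replicate 1. The lists of other cells of the cord differed in direction. Medians were 0.115 for endothelial cells (0 of 4 called) and -0.07 for fibroblasts and meninges (0 of 7 called). The microglia and macrophage list had a median of 0.10, with 3 of 12 called higher. The neuron list had a median of -1.03 with 0 of 8 genes called and summed signals of 1285.9 to 9254.6 in aged injured against 6365.1 to 9919.8 in young injured cord, the lowest again in aged injured replicate 1. The oligodendrocyte list had a median of -0.48 with 1 of 7 genes called lower and sums of 15081.7 to 20281 against 22392.5 to 24460.5. The 1 Schwann cell marker tested, Ncmap, had a mean of 18.1 in aged and 51 in young injured cord. It passed the limit of 50 only through the young injured group, which set this direction. The part of any of these cells in the lower Clu was not tested.

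Abca1 and Abcg1, the efflux transporters, both rose with injury. Abca1, which loads cholesterol and phospholipid onto lipid-poor apolipoproteins, had signals of 420.4, 372.4 and 383.6 in young intact and 604.5, 564.6 and 589.2 in aged intact cord. SCI brought it to 4650.1, 3719 and 4970.1 in young and 5115.5, 4536 and 4838 in aged mice. The intact ages were clearly apart and the injured ages overlapped. With injury Abca1 rose 11.3-fold in young (log2 fold change 3.49, SE 0.10, limma adjusted p = 9.01e-10) and 8.23-fold in aged mice (3.04, adjusted p = 4.02e-09).

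Abca1 was also the only 1 of the 10 genes called between the ages in intact cord, where 0.809% of all genes were called (0.542% higher). Its mean was 586 ± 20.1 in the aged and 392 ± 25.1 in the young animals (n = 3 each, SD), which is 0.58 on the log2 scale (SE 0.10, 95% interval 0.36 to 0.80, limma adjusted p = 0.0208). The call ended without any 1 of the 6 intact arrays (adjusted p of 0.0529 to 0.110), with values of 0.54 to 0.63 over all arrays left out in turn. The other probes of Abca1, 1421839_at and 1450392_at, had intact means of 18.9 and 6.70 in young and 17.5 and 7 in aged mice, under the limit of 50, and so give no age difference there. In intact cord, 7 of the 12 microglia and macrophage markers were called higher in aged mice, the list having a median of 0.68 on the log2 scale, and their summed signals did not overlap between the ages. Their part in the higher Abca1 was not tested.

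After SCI the age difference of Abca1 was 0.13 (95% interval -0.09 to 0.35, adjusted p = 0.378), and the interaction of age and injury, -0.45, was not called (95% interval -0.76 to -0.14, adjusted p = 0.165). The dimmer probes 1421839_at and 1450392_at gave differences of 0.81 and 0.49 on the log2 scale in injured cord, neither of them called (adjusted p = 0.0725 and 0.296). Mean signals of 1421839_at were 256 in young injured and 445 in aged injured cord, with every aged array above the young ones.

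Abcg1, which passes cholesterol to particles that already hold lipid, had signals of 311.5, 293.9 and 331.5 in young intact and 357.1, 354.9 and 355.4 in aged intact cord. After SCI they were 1244.4, 822.5 and 1035.3 in young and 1485, 1067 and 1183 in aged mice. The intact ages did not overlap, and the injured ages did. Abcg1 rose 3.27-fold in young and 3.47-fold in aged mice (log2 fold changes 1.71 and 1.79, SE 0.15, limma adjusted p = 3.28e-06 and 1.73e-06). Neither age difference was called (0.19 in intact cord, 95% interval -0.13 to 0.51, and 0.27 in injured cord, 95% interval -0.05 to 0.60).

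The lipase genes Lpl and Lipa and the droplet gene Plin2 rose with injury, and after SCI they were higher in aged mice. Lpl, lipoprotein lipase, had signals of 137, 134.3 and 128.6 in young intact and 203.6, 197.3 and 196.4 in aged intact cord. In injured cord they were 2611, 2096 and 3469 in young and 5186, 4274 and 4833 in aged mice. The aged arrays were above the young ones at both stages with no overlap. With injury Lpl rose 20.02-fold in young and 23.9-fold in aged mice (limma adjusted p = 3.33e-09 and 3.27e-09). After SCI the mean was 4764 ± 459.8 in the aged and 2725 ± 694 in the young animals (n = 3 each, SD), 1.75 times the young mean (log2 fold change 0.83, SE 0.15, 95% interval 0.51 to 1.15, adjusted p = 0.0132).

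The call of Lpl in injured cord held without any 1 of the 12 arrays (adjusted p up to 0.0446), and without aged injured replicate 1 the value was 0.77 (adjusted p = 0.0150). A second probe, 1431056_a_at, had means of 719 in young injured and 1890.4 in aged injured cord and a difference of 1.41. In intact cord Lpl differed by 0.58 (SE 0.15, 95% interval 0.26 to 0.90), which was not called (adjusted p = 0.139). It was called without young injured replicate 2 or 3 (adjusted p = 0.0368 and 0.0275). The interaction was 0.25 (adjusted p = 0.540).

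Lipa, lysosomal acid lipase, had signals of 124.7, 136.8 and 110.4 in young intact and 127.9, 128 and 121.4 in aged intact cord, which overlapped. In injured cord they were 737.1, 579.7 and 812.8 in young and 1822, 1127 and 1350.1 in aged mice, with aged injured replicate 1 the highest and no overlap. Lipa rose 5.69-fold in young and 11.2-fold in aged mice (limma adjusted p = 5.62e-07 and 4.46e-08). After SCI the aged mean was 2.02 times the young mean (log2 fold change 1.00, SE 0.17, 95% interval 0.63 to 1.37, adjusted p = 0.0115). Without aged injured replicate 1 the value was 0.81 (adjusted p = 0.00748), and the call held without any 1 of the 12 arrays (adjusted p up to 0.0384). In a limma fit of the 6 injured arrays alone Lipa was not called (adjusted p = 0.139). The other probes, 1423140_at and 1423141_at, each gave 0.79, with adjusted p of 0.0676 and 0.0722. The interaction of 0.97 was not called (SE 0.24, adjusted p = 0.110), but was without aged injured replicate 2 (adjusted p = 0.0290).

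Plin2, perilipin 2, covers lipid droplets in most cells that are not fat cells. Its signal was 113.3, 104 and 135.6 in young intact and 144.2, 138.5 and 118.4 in aged intact cord. SCI brought it to 2123, 1357 and 2405 in young and 4249, 2874.5 and 3318 in aged mice. The intact ages overlapped, and the injured ages did not. Plin2 rose 16.3-fold in young and 25.8-fold in aged mice (limma adjusted p = 7.22e-08 and 2.36e-08). The difference between the injured ages was 1.80-fold (log2 fold change 0.85, SE 0.21, 95% interval 0.39 to 1.31, adjusted p = 0.0324). The call ended without young intact replicate 1, young injured replicate 1 or 2 or aged injured replicate 1 or 3 (adjusted p of 0.0509 to 0.0812). Without aged injured replicate 1 the value was 0.70 (adjusted p = 0.0639).

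Lpl and Plin2 are also genes of fat cells. The adipocyte markers Adipoq, Lep and Cidec had means under 50 in all 4 groups, and their summed signal did not exceed 39.1 on any array. The microglia and macrophage list had 3 of 12 genes called higher and none lower in aged mice after SCI, with a median of 0.10 on the log2 scale and overlapping sums. Means in young and aged injured cord were 2119 and 3578 for Cd68, 182.7 and 328 for Itgam and 773.3 and 1240 for Adgre1. Only Csf1r (4329 and 4036), Lyz2 (5790 and 5353) and P2ry12 (251.8 and 221.6) had lower means in aged mice. The part of such cells in the higher Lpl, Lipa and Plin2 was not tested. The higher arrays of a group tended to be shared by the genes: aged injured replicate 1 was the highest of its group for Lpl, Lipa, Plin2, Apoc2, Abca1 and Abcg1 and the lowest for Apoc1, Apod and Clu, and young injured replicate 2 was the lowest of its group for all 10.

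Over the 10 genes, 5 were called between aged and young injured cord, Lpl, Lipa and Plin2 higher and Apoc1 and Clu lower, where 8.99% of all genes were called (4.41% higher and 4.58% lower). The median log2 fold change of the 10 was 0.20, against -0.04 over all genes tested. The ages did not overlap after SCI for 6 of the 10, 4 higher and 2 lower in aged mice, against 28.1% of all genes (14.0% higher and 14.1% lower), and in intact cord for 4 of the 10 (Apoe, Abca1, Abcg1 and Lpl, all higher in aged mice), against 25.5% of all genes (14.3% higher). These counts describe the 10 genes and draw on shared arrays. By the study's cutoffs, a signal above 50 and means more than 2-fold apart, Lipa and Apoc1 passed, against 2.01% of 9834 genes. A limma fit of the 6 injured arrays alone called none of the 5 (adjusted p of 0.0958 to 0.204) and 0 of all genes, while 6 of the 10 and 1974 of all genes had an unadjusted p under 0.05 in it.

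**Figure D4:**
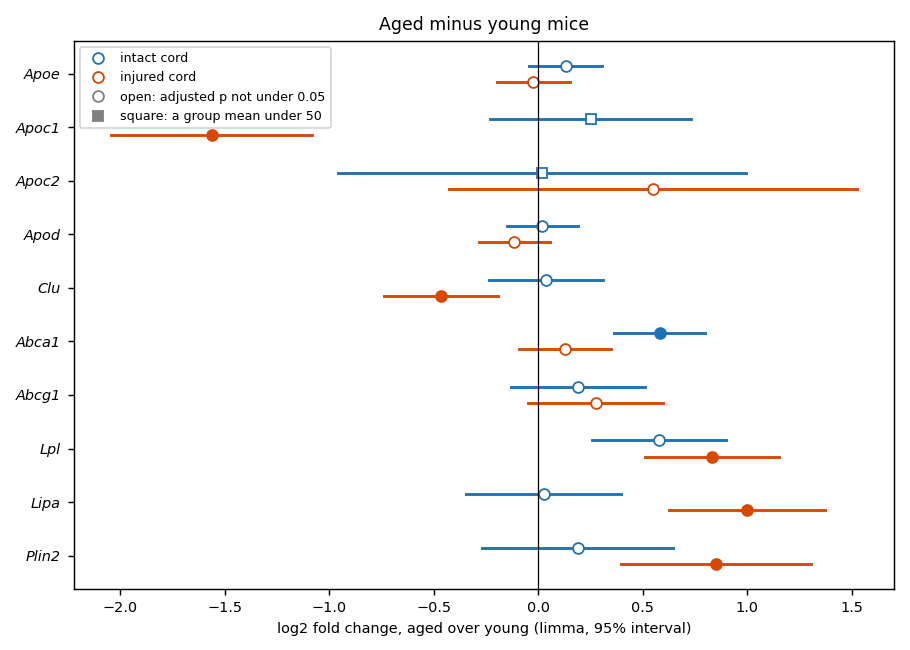
Difference between aged and young mice as a log2 fold change from limma with its 95% interval (horizontal axis) for the 10 genes, in intact and in injured cord, with open points where the adjusted p was not under 0.05 and squares where a group mean was under 50. After SCI Apoc1 (-1.56) and Clu (-0.47) lie below 0 and Lpl (0.83), Lipa (1.00) and Plin2 (0.85) above it, while in intact cord Abca1 (0.58) is the one filled point.

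**Figure D5:**
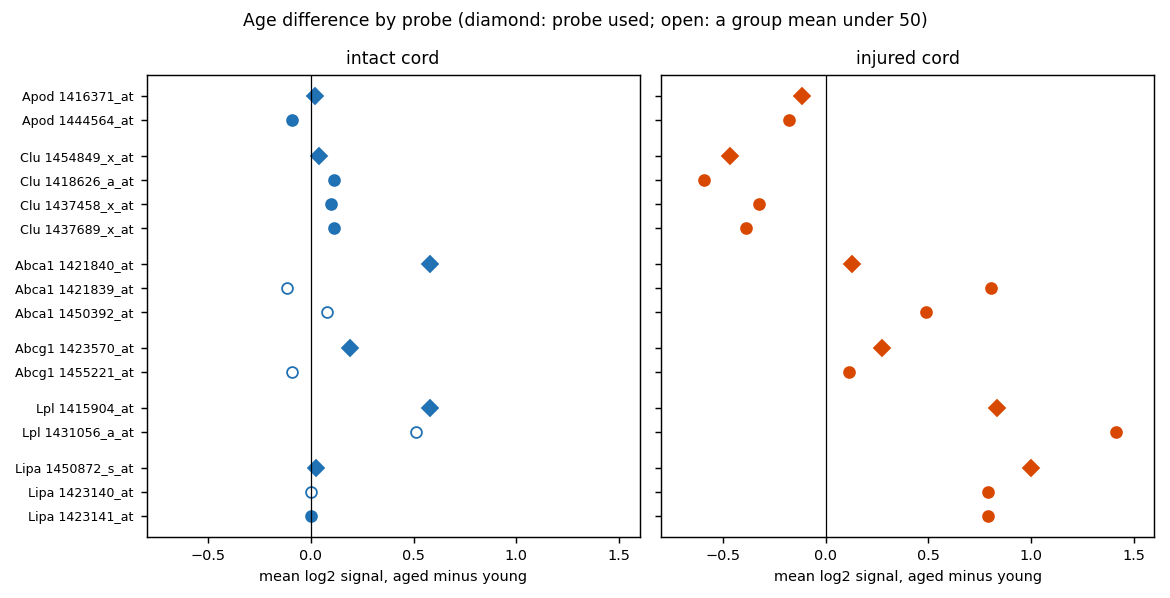
Difference between aged and young mice in mean log2 signal (horizontal axis) for each probe of the 6 genes with several probes, in intact and in injured cord, with diamonds for the probe used and open symbols where a group mean is under 50. The 4 probes of Clu are all below 0 in injured cord and the 3 of Lipa all above it, while the 3 of Abca1 differ from 0.13 to 0.81 in injured cord.

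The start regions of genes that rose with injury were read from RefSeq (GRCm38.p6) to show what lies before them. Of the 10 genes, 6 had an entry. The 250 bases before the start are shown, read 5′ to 3′ on the strand of the gene, for Abca1, Plin2, Lipa and Apoc2, the genes with an entry whose signals rose more than 5-fold at both ages, a choice made after their values were seen. Apoe, with 3 windows, and Apod also had entries and are not printed. Capitals mark motifs found on either strand: the nuclear receptor motif (AGGTCA), the E box (CACGTG), the GC box (GGGCGG) and the TATA box (TATAAA).
Abca1, chr4:53159896-53160145, minus strand: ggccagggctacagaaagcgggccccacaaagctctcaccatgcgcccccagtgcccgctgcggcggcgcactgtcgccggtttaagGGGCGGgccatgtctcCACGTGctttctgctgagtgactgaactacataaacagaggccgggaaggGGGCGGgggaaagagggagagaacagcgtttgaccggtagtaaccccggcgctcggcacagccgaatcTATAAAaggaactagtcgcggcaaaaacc
Plin2, chr4:86670060-86670309, minus strand: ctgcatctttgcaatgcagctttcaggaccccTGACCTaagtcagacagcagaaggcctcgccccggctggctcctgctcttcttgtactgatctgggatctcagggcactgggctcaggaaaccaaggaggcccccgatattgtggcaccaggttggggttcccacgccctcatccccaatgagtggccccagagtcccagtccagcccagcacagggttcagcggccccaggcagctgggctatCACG
Lipa, chr19:34527475-34527724, minus strand: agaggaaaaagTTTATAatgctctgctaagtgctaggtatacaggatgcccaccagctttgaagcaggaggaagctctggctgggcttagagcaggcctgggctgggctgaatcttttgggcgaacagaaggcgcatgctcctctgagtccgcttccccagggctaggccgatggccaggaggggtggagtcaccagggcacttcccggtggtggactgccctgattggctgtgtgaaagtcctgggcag
Apoc2, chr7:19677942-19678191, minus strand: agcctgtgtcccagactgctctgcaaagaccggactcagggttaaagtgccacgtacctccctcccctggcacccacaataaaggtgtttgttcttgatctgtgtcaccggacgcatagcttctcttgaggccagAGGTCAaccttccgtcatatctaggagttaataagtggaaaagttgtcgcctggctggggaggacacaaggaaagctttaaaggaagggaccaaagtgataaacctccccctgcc

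Abca1 has an E box 147 bases before its start, GC boxes at 163 and 97 bases and a TATA box at 29 bases before it. In Plin2 a receptor motif lies 218 bases before the start, on the other strand, and an E box runs across the start, so that only its first letters are in the stretch shown. Apoc2 has a receptor motif 115 bases before its start. Lipa has TATAAA 239 bases before its start, on the other strand. Of the windows not printed, 1 of Apoe holds TATAAA 100 bases before its start, on the other strand, and 96 bases before it. Over 32851 RefSeq windows of 300 bases, 16.3% hold the receptor motif, 7.15% the E box, 35.7% the GC box and 13.6% TATAAA. The receptor motif repeated with a gap of 1 base (DR1, AGGTCANAGGTCA) or of 4 bases (DR4, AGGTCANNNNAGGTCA), which receptors of fatty acids and oxysterols are known to bind as pairs with the retinoid X receptor, is in 0.0396% and 0.0152% of windows and in none of the 8 windows of these genes. A GC box of Plin2, one of Lipa and another receptor motif of Apoc2 lie after the start, outside the stretches shown. Only exact copies of the letters were searched, and copies that differ by some letters were not. The lack of a DR1 or DR4 match therefore does not mean that no such site is present. Matches are descriptions of letters only.

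Other genes of the pathway were taken from 7 lists of 74 genes in all, of which 65 had a probe of their own and 44 passed the limit on signal. With injury, 20 of the 44 rose and 8 fell in young mice, and 22 rose and 11 fell in aged mice. That is 63.6% and 75.0% of the 44, close to the 68.0% and 75.5% of all genes tested. Of the 44, 9 passed the limit only through injured groups (Apoc4, Scarb1, Lmf1, Angptl4, Ch25h, Plin4, Pnpla2, Hilpda and Fabp4) and 2 only through intact groups (Lrp8 and Abcg4). Among the other 33, 13 rose and 6 fell in young mice, and 14 rose and 9 fell in aged mice. For Fabp4, Ch25h, Angptl4 and Apoc4, described next, being higher after SCI was therefore set by the limit. Fabp4, a fatty acid carrier of fat cells and macrophages, rose at least 9.52-fold in young and at least 16.9-fold in aged mice. Ch25h, which makes 25-hydroxycholesterol and lies next to Lipa on chromosome 19, rose at least 7.56-fold in young and at least 12.96-fold in aged mice. Angptl4, an inhibitor of lipoprotein lipase, rose at least 2.95-fold and at least 3.95-fold, and Apoc4 at least 3.37-fold and at least 2.49-fold.

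Among the receptors and their regulators, 4 of 8 genes rose in either age, 2 fell in young and 3 in aged mice, which is 75.0% and 87.5% of the list. Without Scarb1 and Lrp8, 3 of 6 rose at either age, 1 fell in young and 2 in aged mice. Mylip, which encodes a ubiquitin ligase that marks lipoprotein receptors for breakdown, went from 134 ± 12.2 to 1132 ± 216 in young mice and from 146 ± 5.65 to 1211 ± 188 in aged mice (n = 3 each, SD; log2 fold changes 3.06 and 3.04, limma adjusted p = 4.15e-08 and 4.34e-08). Lrp1, a large endocytic receptor of apolipoprotein E, had 269.9 ± 20.5 in aged intact and 954 ± 185 in aged injured cord (log2 fold change 1.81, adjusted p = 1.78e-06). In young mice Lrp1 also rose, from 298.9 ± 5.19 to 671.2 ± 110. Stard4, a carrier of cholesterol inside cells, fell by 1.81 on the log2 scale in young mice, from 219.6 ± 15.7 to 63.0 ± 7.67 (adjusted p = 1.84e-06). In aged mice Stard4 also fell, from 194.7 ± 10.8 to 58.5 ± 11.4.

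Between aged and young injured cord, 6 of the 44 were higher and 6 lower, 27.3% of them against 8.99% of all genes, and their median was -0.04 on the log2 scale. The share describes the 44 genes and was not tested. The sterol turnover list held 3 of the higher genes and 1 lower among 9. Ch25h was at 648 ± 73.7 in the aged and 378 ± 43.0 in the young group (n = 3 each, SD; log2 fold change 0.78, SE 0.16, limma adjusted p = 0.0184), a call that ended without young injured replicate 1 or 2 or aged injured replicate 3 (adjusted p up to 0.0623). Nceh1, which splits cholesterol esters outside the lysosome, was higher by 0.55 (adjusted p = 0.0240), until young injured replicate 2 or 3 was left out (adjusted p up to 0.0806). Hilpda, an inhibitor of droplet lipolysis, was higher by 1.20 (adjusted p = 0.0453), a call that ended without any 1 array other than aged intact replicate 2 and aged injured replicate 2 (adjusted p up to 0.130).

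Lcat, which esterifies cholesterol on particles, was lower in aged injured cord by a log2 fold change of -0.76 (75.4 ± 19.6 against 125 ± 9.95 in young mice, n = 3 each, SD, limma adjusted p = 0.0205). Without young injured replicate 1, 2 or 3 or aged injured replicate 3 it was not called (adjusted p up to 0.0680). In intact cord Lcat was also lower on every aged array (68.4 to 77.8 against 90.9 to 102), a difference not called. Dgat2, an enzyme of triglyceride synthesis, was lower by -0.62 (adjusted p = 0.0353), and this call ended without any 1 array other than young injured replicate 1 and aged injured replicates 2 and 3 (adjusted p up to 0.111). Dgat2 too was lower on every aged intact array (75 to 84.5 against 93.8 to 105.4), a difference not called. Plin4, another droplet coat, had a mean of 21.2 in aged and 50.5 in young injured cord, so that its difference was at least 1.01-fold (adjusted p = 0.0359). It passed the limit only through the young injured group, which set this direction. That call ended without any 1 of the young intact arrays, young injured replicate 1 or 3, aged intact replicate 3 or aged injured replicate 3 (adjusted p up to 0.0999).

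In intact cord, 1 of the 44 was higher and 2 were lower in aged mice, 6.82% of them against 0.809% of all genes. The transporter gene Abca8a was at 242 ± 23.0 in the aged and 88.9 ± 8.83 in the young group (n = 3 each, SD; log2 fold change 1.45, SE 0.24, limma adjusted p = 0.0194). Fabp7, the fatty acid carrier of radial glia and astrocytes, was at 769.6 ± 22.3 against 1249.7 ± 205 in young mice (log2 fold change -0.69, adjusted p = 0.0219). Abhd5, the activator of the main triglyceride lipase, was at 131 ± 8.55 and 197 ± 3.79 (-0.59, adjusted p = 0.0161). Each of these calls ended when intact arrays were left out, for Abca8a and Abhd5 each of the 6 (adjusted p up to 0.101 and 0.0736) and for Fabp7 all but young intact replicate 3 (adjusted p up to 0.110).

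The pattern of each of the 10 genes over the 12 arrays was set beside those of all genes tested by the root mean square difference of log2 signals, each gene centred on its own mean, where smaller is more alike. The measure is not scaled to the size of the changes. Genes that change little therefore lie close to each other, and genes with large changes lie farther from others. Closest to Apoe were Mgst1 (0.0906) and Col16a1 (0.0969), and closest to Apod were Nuak1 (0.0656) and Bet1l (0.0674). Clu was most like Aldh1a1 (0.0717) and Add3 (0.0739). Abca1 was most like C1qa (0.116), a complement gene of microglia and macrophages, and Tlr2 (0.142), and Abcg1 like Colgalt1 (0.0872) and Palld (0.0895).

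For Lpl the nearest genes were Cyba (0.154), a subunit of the phagocyte oxidase, and Ch25h (0.166). Lipa was nearest to Npl (0.138) and Man2a1 (0.164), and Plin2 to Tmem106a (0.15) and the lysosomal gene Gusb (0.204). Apoc1 and Apoc2 had the largest distances to their nearest genes, with Fcrls (0.550) and Tlr2 (0.570) closest to Apoc1 and AB124611 (0.502) and Ms4a7 (0.582) closest to Apoc2. The intact signals of Apoc2, 2.3 to 8.8 and so under 50, enter its values. Among the 10 themselves the nearest pairs were Apod with Clu (0.167), Lpl with Plin2 (0.205) and Apoe with Abcg1 (0.223). All these values come from the same 12 arrays and are descriptions.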

How the data were processed

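Total RNA of Th9 cord segments from 12 mice was hybridized to 1 GeneChip Mouse Genome 430 2.0 array each. The authors made the deposited values with the MAS 5.0 algorithm, which subtracts background and scales each array, and these are linear signal intensities (2% trimmed mean of 100 on every array). Such scaling sets differences relative to the whole array, and low signals carry most noise. Of 45101 probes, 34958 were paired with 1 gene through the platform annotation, 932 with several and 9211 with none, and symbols were checked against RefSeq gene IDs (34754 matched, 0 changed).

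Log2 signals were fitted with limma 3.58.1 in R 4.3.3 (1 mean per group, all 12 arrays, trended spread), with 1 probe per gene and a minimum group mean of 50, and p-values were adjusted by Benjamini-Hochberg over 10511 genes. For folds, a group mean under 50 was replaced by 50 and the fold written as a lower bound ("at least"). Differences between genes were tested with exact permutation tests (SciPy 1.17.1). Nothing in the labels says that the mice were handled in batches, and the number of arrays, 3 per group, limits the precision. Replicate numbers were not used to pair the samples in the main fit. All 10 genes are named, and of the pathway lists at most the 6 called genes of largest change per comparison, plus for each of the 10 the 2 genes of most similar pattern. The genes and lists were chosen with earlier results of these data known. Alternatives covered the normalization, the filter, an added constant, the spread, the probes, the arrays fitted, array weights, the study's cutoffs (signal above 50 and fold above 2), a replicate block and each array left out, and for the named pathway genes these were added after seeing the data. The fit was also run on simulated data in which each gene had the same spread in every group. Since the aged injured arrays were more unlike each other than those of other groups, this cannot show how the fit behaves for the injured ages.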

Additional observations from a re-analysis of the deposited data

Results flagged for a closer look

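For 2 genes the response to injury differed between the ages by the test of the difference itself, the interaction term of limma. That of Apoc1 was -1.81 on the log2 scale (-1.814, adjusted p = 0.0376, 0.438% of all genes called). Apoc1 rose at least 19.2-fold in young and 6.11-fold in aged mice, and its young intact mean of 44.6 was under 50. With 16 added to every signal the interaction was -1.70 (adjusted p = 0.0390). It held without young injured replicate 2 or any 1 of the aged injured arrays, but ended without each other array (adjusted p up to 0.120). That of the transporter gene Abca8a was -1.86 (-1.856, SE 0.34, adjusted p = 0.0491). Its signals were 82.5, 85.3 and 99 in young intact, 267.6, 223.1 and 235.3 in aged intact, 126.9, 131.8 and 92.1 in young injured and 56.4, 123.1 and 94.3 in aged injured cord, so that the aged intact arrays stand above all others. Leaving out any 1 array but aged injured replicate 1 or 2 ended the call of Abca8a (adjusted p up to 0.152).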

How the results depend on the processing

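The differences of the 10 genes with injury, other than those of Apod and Clu, kept their direction and their call under every alternative run. Alternatives moved the age comparisons more. For aged against young intact cord the 1 call among the 10 became 2 with only the compared groups fitted and 2 with array weights (Lpl joined, adjusted p = 0.000666 and 0.00424), and 0 with the mean of all probes above 50 (Abca1 0.18, adjusted p = 0.915, and 1 at an unadjusted p under 0.05). For the injured ages 5 became 0 with only the compared groups (6 at an unadjusted p under 0.05) and 2 by the study's cutoffs (Lipa higher, Apoc1 lower). For the interaction 1 became 0 without the filter, 0 without a trend in the spread (5 and 4 at an unadjusted p under 0.05) and 4 with array weights (1 higher and 3 lower). Of the 44 pathway genes, 3 became 6 and 7 in intact cord with only the compared groups and with array weights, 12 became 0 and 2 in injured cord with only the compared groups and by the study's cutoffs, and 1 became 0, 0 and 7 for the interaction without the filter, without the trend and with array weights. Shares over all genes moved too. For the intact ages 0.809% became 4.70% with only the compared groups and 6.58% with array weights, and 0.723% with the mean of probes. For the injured ages 8.99% became 0.00% with only the compared groups and 2.01% by the study's cutoffs. For the interaction 0.438% became 0.121% without the filter, 0.257% without the trend and 7.87% with array weights. The cause was not tested. With 1 array left out, the calls among the 10 were 0 to 2 (intact ages), 3 to 5 (injured ages), 8 to 10 (injury, young), 8 to 9 (injury, aged) and 0 to 2 (interaction), and among the pathway genes 0 to 4, 1 to 18, 25 to 31, 32 to 35 and 0 to 4. Over all genes the shares were, in the same order, 0.314% to 2.05%, 2.77% to 29.2%, 59.7% to 72.8%, 71.0% to 75.7% and 0.0666% to 5.05%.

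The replicate numbers of the labels were not taken as pairs in the main fit. Of 18 same-numbered pairs, 2 had correlated deviations above 0.1 and the median was 0.0209. These 2 pairs were young injured with aged injured replicate 1 (0.595) and young injured with aged injured replicate 2 (0.667). Replicate 3 of these groups gave 0.0145, and the crossed pairs of replicates 1 and 2 gave -0.591 and -0.628. The source of this shared pattern in the injured groups was not tested. With the replicate number as a block, the calls were 1, 4, 9 and 8 of the 10 genes for the intact ages, the injured ages and injury in young and in aged mice, and 0 for the interaction (Apoc1 adjusted p = 0.0706, and 5 at an unadjusted p under 0.05). For the pathway genes they were 3, 10, 28, 34 and 0. Of all genes, 0.675%, 9.91%, 67.7%, 75.0% and 0.209% were called, in the same order.

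Clu in injured cord lost its age call without the filter, without the trend and with the block (adjusted p = 0.0654, 0.0572 and 0.0504). Its increase in young mice was lost with quantile normalization (0.10, adjusted p = 0.473), which also called Clu lower with injury in aged mice (-0.46, adjusted p = 0.00443) and ended the increase of Apod in young mice (0.09, adjusted p = 0.348). Some values changed sign. For the intact ages these were Apoc2 with quantile normalization (-0.0406) and with 16 added (-0.0337), Apod with array weights (-0.000574), the mean of probes (-0.0357) and probe 1444564_at (-0.0911), Lipa with array weights (-0.00256) and probe 1423140_at (-0.000906), Abca1 with probe 1421839_at (-0.11) and Abcg1 with probe 1455221_at (-0.0935). The difference of Apod with injury in aged mice was -0.14 with quantile normalization (adjusted p = 0.145), while array weights, the mean of probes and probe 1444564_at called it higher (0.18, 0.60 and 1.08). For the interaction these were Abca1 with the mean of probes (0.29), probe 1421839_at (0.92) and probe 1450392_at (0.41), and Abcg1 with array weights (-0.0445). With 1 array left out, the sign also varied for Abcg1 in the interaction (-0.0704 to 0.23), for Apoe between the injured ages (-0.11 to 0.0603) and between the intact ages for Apoc2 (-0.59 to 0.37), Apod (-0.0359 to 0.0659) and Lipa (-0.0550 to 0.10). Signals under 50, as for Apoc2 in intact cord, limit what could be seen there.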
